A study of Drosophila melanogaster with 6 samples.

Results

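Of the 13745 peaks in a list from anti-tango ChIP-seq of fruit fly larvae, 794 (5.78%, 95% Wilson interval 5.40 to 6.18%) lay on U, and these are described here. Measured from the first to the last peak of each sequence, U held 79.5 peaks per Mb and the whole list 81.9 per Mb. The whole list mixes unlike parts, as 75.8% of its peaks lay on Uextra, the larger collection of unplaced scaffolds. Uextra held 359 peaks per Mb, the scaffolds of known heterochromatin (named Het) 60.7 and the chromosome arms 16.5. The peaks were chosen by position alone, as all those whose sequence is named U, and every one of them was used. The study has 3 anti-tango ChIP libraries and 3 input DNA libraries, with input being chromatin that was not precipitated. All 6 come from wandering Drosophila melanogaster larvae of the third instar, of unknown sex, fixed in 1.8% formaldehyde for 15 min, and a replicate number does not show whether larvae were collected separately. The strain is Y cn bw sp, and all libraries share its alleles. These are the markers bw[1], cn[1], sp[1] and y[1], together with Gr22d[1], Gr22b[1], oc[R3.2], lab[R4.2] and CG33964[R4.2], and also Rh6[1], GstD5[1], MstProx[1] and LysC[1]. The antibody is a mouse monoclonal named for tango, although the series title names TCF.

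In the release 5 assembly of the fly genome, U is a collection of scaffolds that could not be assigned to a chromosome and were joined into one sequence. Such scaffolds come largely from heterochromatin, the compacted chromatin around centromeres and on the Y chromosome, which is rich in satellite repeats and copies of transposable elements. A distance along U has meaning only within a scaffold, and the borders between scaffolds are not marked in the list. Tango is a bHLH-PAS protein that pairs with partners such as Trachealess and Single-minded, and the pairs bind DNA in front of target genes. The deposited list is 1 list for all libraries, so there is no value per library, no replicate error and no known read depth, and no test between samples could be made. Peaks of 1 list are not replicates of each other, so U is set beside other sequences by values and intervals only. The intervals cover counting error, and no gene or repeat is named, since no genome of this release was used.

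Scores on U ranged widely, and the classes from 40 to 80 held the fewest peaks below 100. The lowest score was 6.45, the lower quartile 16.8, the median 36.3, the upper quartile 109 and the highest 1337. The median of the whole list was 57.7, with 78.8 on Uextra, 20.1 on the arms and 17.0 on the Het scaffolds. Widths ran from 201 to 9430 bp, with quartiles of 322, 629 and 1341 bp. A score under 20 was held by 264 peaks (33.2%), with a median width of 291 bp. A score of 100 to 150 was held by 195 peaks (24.6%), with a median width of 1726 bp. Between these classes, 149 peaks (18.8%) scored 20 to 40, 42 (5.29%) 40 to 60, 35 (4.41%) 60 to 80 and 59 (7.43%) 80 to 100.

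The change from weak to strong peaks followed position along U. Past 7 Mb, 442 peaks lay in 3.04 Mb, which is 146 per Mb, and before 7 Mb 352 peaks lay in 6.95 Mb, which is 50.6 per Mb. The median score was 99.5 (quartiles 32.7 and 126) past 7 Mb and 19.1 (quartiles 13.9 and 31.1) before it. Scores of 100 or more belonged to 217 of 442 peaks past 7 Mb (49.1%, 44.5 to 53.7%) and to 28 of 352 before it (7.95%, 5.56 to 11.3%). In the whole list 29.2% of peaks scored this high, with 34.5% on Uextra, 8.18% on the arms and 2.96% on the Het scaffolds. The limit of 7 Mb was chosen after the scores had been seen, and neighbouring peaks are not independent. These intervals therefore do not test the change. Peaks covered 18.3% of the sequence past 7 Mb and 3.37% of that before it, and their median width was 1069 bp past 7 Mb and 394 bp before it. By single Mb, the median score lay between 15.9 and 24.3 in each of the first 7. It was 97.1 from 7 to 8 Mb, 106 from 8 to 9 Mb and 84.8 from 9 to 10 Mb. The change was not a clean step at 7 Mb. From 6 to 7 Mb the upper quartile was already 84.0, and 14 of 67 peaks (20.9%) scored 100 or more. In each earlier Mb that share was at most 11.8%.

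**Figure D1:**
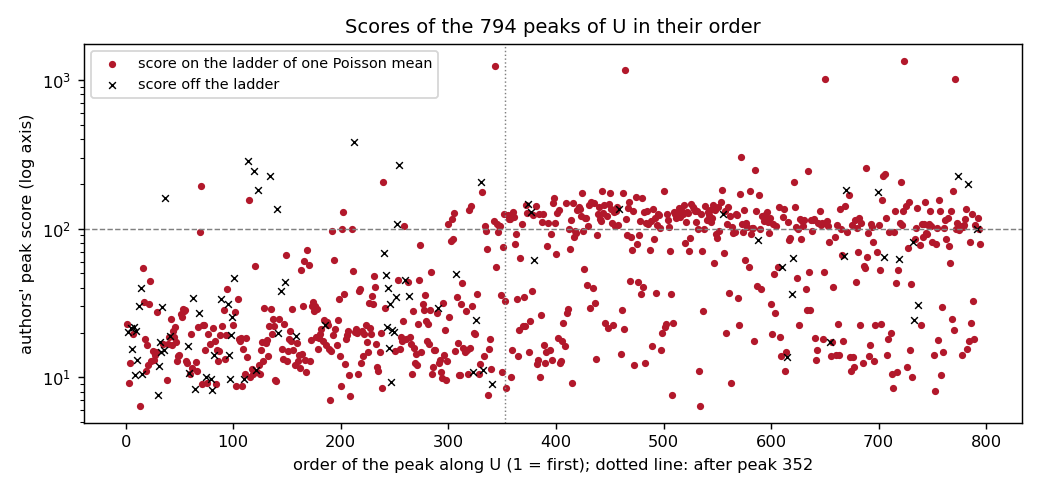
Each point is a peak of U, placed by its order along U on the x axis and by the authors' score on a logarithmic y axis; crosses are scores that do not match the fitted Poisson mean (off the ladder), the dashed line marks a score of 100 and the dotted line the last peak before 7 Mb. Left of the dotted line most points lie under 40, and right of it a dense band lies between 100 and 150. The 5 points above 1000, 4 of them right of the line, are set apart from the rest.

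The 245 peaks scoring 100 or more included 162 (66.1%) whose neighbour along U did so too. As 217 of the 245 lay past 7 Mb, where 49.1% of all peaks scored this high, adjacency cannot be told apart from the change with position. The longest unbroken series was of 10 such peaks, from 8129421 to 8170044, with scores of 118 to 144 and widths of 1493 to 3727 bp. Those 10 peaks covered 57.0% of 40.6 kb. The longest series under 100 was of 60 peaks, from 2706970 to 4101307, with scores of 7.04 to 98.8. In 100 kb bins the median was 7 peaks, and the fullest bin, from 8400001 to 8500000, held 27, of which 15 scored at least 100. The fullest 10 bins held 25.3% of the peaks, and 9 of these 10 lay past 7 Mb. A further 11 bins held none, and the longest stretches without a peak were 358 kb (4930510 to 5288389) and 355 kb (508105 to 863425).

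The scores themselves fell on a ladder of fixed values, which bears on how equal scores are read. MACS compares the reads at a place with a Poisson distribution, whose mean is the larger of a genome-wide value and values taken nearby. The mean was fitted on the peaks outside U, where scores fell best on −log10 of the Poisson probability of more than k reads at a mean of 101.727. On U, 704 of 794 scores (88.7%, 86.3 to 90.7%) lay within 0.01 of that ladder, where windows of this size would hold 7.78% of scores spread evenly. Fits on U, on Uextra (the other, larger collection of unplaced scaffolds), on the scaffolds of known heterochromatin (those named Het) and on the arms gave means of 101.727 to 101.7275. The deposited score therefore matches a −log10 p without a further factor of 10. Beside the 88.7% of U, the share of scores on the ladder was 86.6% on Uextra, 81.3% on the Het scaffolds and 46.7% on the chromosome arms (44.5 to 48.9%). The ladder was looked for after the scores had been seen.

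Each rung of the ladder stands for 1 whole number k, so a score can be read as a count over the mean. These counts are inferred from the scores alone, and each would be 1 higher if the probability included k itself. On this reading a score of 20 needs 208 reads, or 2.04 times the mean, and a score of 100 needs 383 reads, or 3.76 times. The 704 peaks of U had a median of 260 reads (2.56 times the mean, quartiles 1.95 and 3.92). The other sequences are likewise given for peaks on the ladder only. The median was 353 reads (3.47 times) for 9013 peaks of Uextra and 198 (1.95 times) for 439 of the heterochromatin scaffolds. For the arms it was 212 (2.08 times) over 925 peaks, which are only 46.7% of those there. Of the 704 on U, 340 (48.3%) lay between 150 and 250 reads and 224 (31.8%) between 350 and 450, with 86 (12.2%) between. On Uextra the same classes held 27.6%, 41.8% and 20.9%, so the gap between weak and strong peaks was less empty there.

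**Figure D2:**
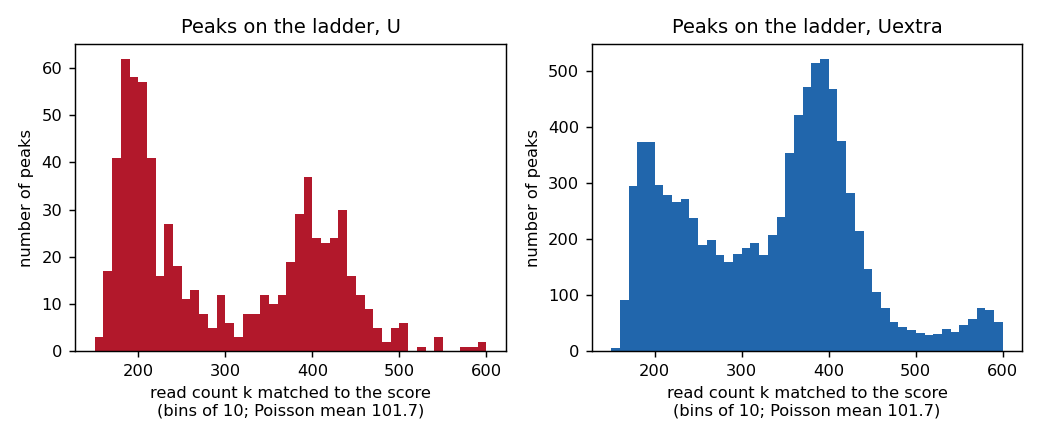
Bars give the number of peaks per 10 reads for peaks on the ladder, with the read count matched to the score on the x axis, on U (left) and Uextra (right); peaks of 600 reads or more are left out and the y axes differ. U shows a tall group near 200 reads and a lower one near 400, and on Uextra the group near 400 is the taller.

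The 90 scores off the ladder were mostly in the first part of U. There were 22 past 7 Mb (420 of 442 on the ladder, 92.6 to 96.7%) and 68 before it (284 of 352 on the ladder, 76.2 to 84.5%). Off-ladder peaks had a median score of 29.9, against 39.0 for those on it, and 43 of the 90 had another as their neighbour. At 4 places at least 4 stood in a row, 23 in all, the longest being 8 peaks from 5290470 to 5298520. They belong to a group of peaks that begins right after the longest peak-free stretch. In it, from 5288390 to 5305782, there were 15 peaks over 17393 bp, 12 of them off the ladder, and together they covered 72.8% of it. Their scores ran from 9.34 to 269.64 and the highest were at 5301131 to 5303493 (107.79) and at 5304451 to 5305782. The other 3 places, of 5 peaks each from 276340, 978178 and 1881003, were 6031 to 6223 bp long with no score above 31.04.

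The 10 highest scores on U fell into 5 far above the others and 5 close to the rest. The strongest was at 9647772 to 9648465, 694 bp wide, with a score of 1337 (1658 reads, 16.3 times the mean), which is rank 10 of the whole list. The next were at 6832673 to 6834269 (score 1241, 1597 bp), 7884954 to 7885630 (1173, 677 bp), 8994680 to 8995336 (1022, 657 bp) and 9905163 to 9906129 (1021, 967 bp). All 5 lay on the ladder at 1389 reads or more, stood outside runs and were at least 994 bp from the nearest peak. In the whole list 20 peaks passed 1000, 13 of them on Uextra. The sixth on U, at 4621080 to 4622060, had a score of 381.83 and was off the ladder, as were those at 2148954 to 2150500 (285.7) and at 5304451 to 5305782 (269.64). On the ladder were the peaks at 8446036 to 8447377 (300.98) and at 9353653 to 9354461 (255).

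Peaks scoring 100 to 400 were wider on U than on the other sequences, while the 5 above 1000 were not (median 694 bp on U, 896 bp for 13 on Uextra). Among peaks with a score of at least 100, 203 of 245 on U were at least 1 kb wide (82.9%, 77.6 to 87.1%). The same held for 791 of 3594 on Uextra (22.0%, 20.7 to 23.4%), 9 of 16 on the Het scaffolds (56.3%, 33.2 to 76.9%) and 32 of 162 on the arms (19.8%, 14.4 to 26.6%). Between scores of 100 and 150 the median width was 1726 bp on U (quartiles 1199 and 2351 bp), 723 bp on Uextra (647 and 891 bp), 618 bp on the 5 Het peaks and 607 bp on the arms (53 peaks). Under 20 the order was the other way round and the spread overlapped, with medians of 291 bp on U, 302 bp on Uextra, 346 bp on the Het scaffolds and 362 bp for the arms. The 15 peaks with scores of 100 to 150 before 7 Mb had a median of 2837 bp, but most of them lay between 6 and 7 Mb. Those before 6 Mb were 865, 899, 2363 and 419 bp wide. Over all 794 peaks the rank correlation of width and score was 0.79. It was 0.28 over the 341 peaks that scored no less than the median of the whole list (57.7). Both values come from the same peak calling, so this is a description.

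**Figure D3:**
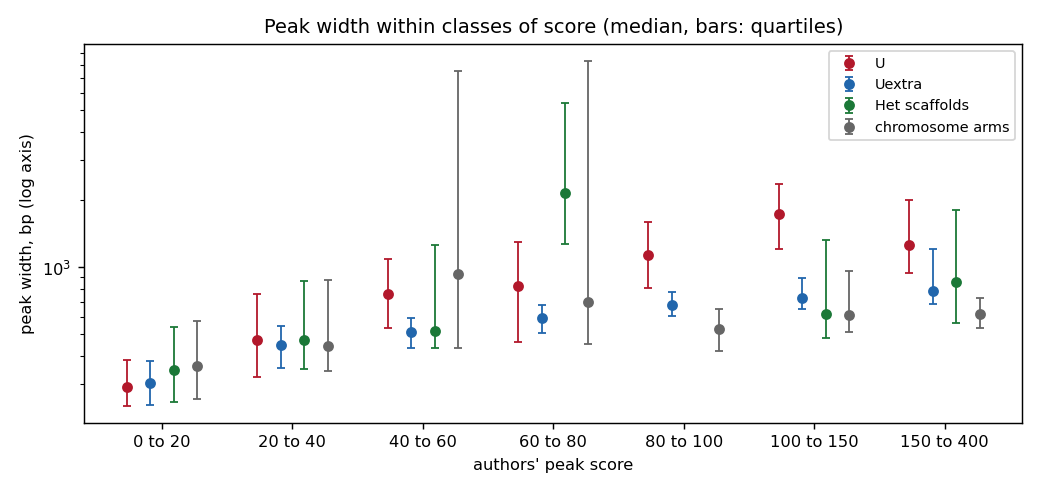
Points give the median peak width on a logarithmic axis and bars the quartiles, within classes of the authors' score on the x axis, for U, Uextra, the heterochromatin scaffolds and the arms; sets of fewer than 5 peaks are left out. U lies close to the others under 40 and above Uextra from 40 to 400, most of all from 100 to 150 (1726 bp on U, 723 bp on Uextra).

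**Figure D4:**
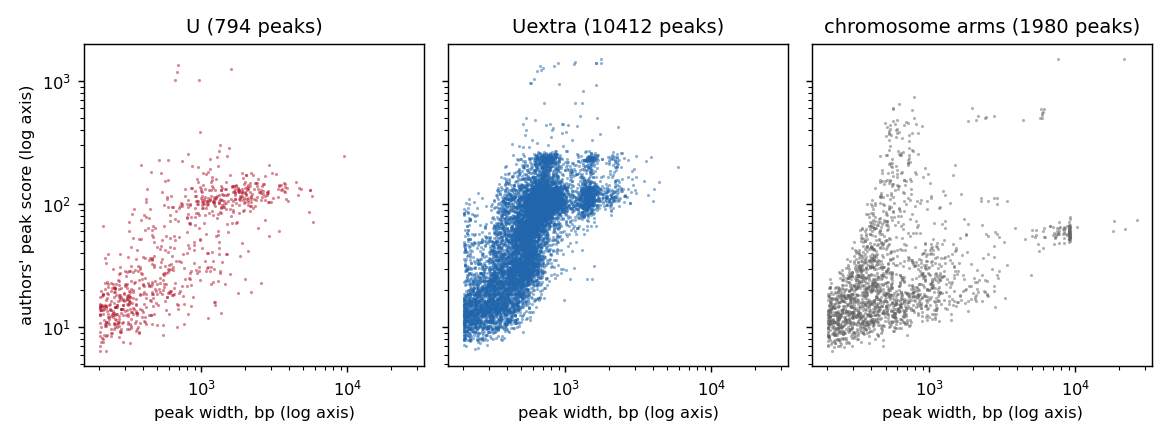
Each point is a peak, with its width on the x axis and the authors' score on the y axis, both logarithmic, for U, Uextra and the chromosome arms. U has a loose cloud between 1 and 4 kb near a score of 120, Uextra has narrow columns under 2 kb, and the arms have a tight group of wide peaks near 9 kb that U lacks.

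The widest peaks of U did not share one width or score. The widest, at 2190230 to 2199659, spanned 9430 bp with a score of 244, and the next, at 3411312 to 3417133, spanned 5822 bp with a score of 72.0. Those at 7064055 to 7069774 (5720 bp, 116), 7136611 to 7142184 (5574 bp) and 8184017 to 8189549 (5533 bp) followed. The last 2 had the same score of 130.11, or 432 reads, which U peaks of 1361 and 2068 bp also had. None of the 794 was 9.0 to 9.2 kb wide. Of the 29 peaks of at least 3 kb, the fullest 200 bp of width, from 3356 bp, held 7. On the arms the fullest held 52 of 120, from 8967 bp.

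Runs of adjacent peaks were short, and their share of the peaks on U was not above that in the whole list. A run is taken here as peaks with at most 400 bp between their edges, and 305 peaks (38.4%, 35.1 to 41.8%) were in one. The share in runs was 42.3% in the whole list, 40.5% on Uextra, 59.4% on the Het scaffolds and 48.0% for the arms. There were 131 runs on U, of which 100 had 2 peaks, 21 had 3, 8 had 4 and 2 had 5. Their median length was 1777 bp and peaks filled a median of 85.4% of them. Peaks in runs had a median score of 23.0 and a median width of 524 bp, and the 489 lone peaks 61.0 and 776 bp. Past 7 Mb 32.6% of peaks were in runs (28.4 to 37.1%), and before it 45.7% (40.6 to 51.0%).

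The smallest gap was 50 bp, both on U and in the whole list, and the smallest width 201 bp, so the list has a floor for each. Of 793 gaps on U, 35 were 50 to 100 bp, 139 were longer but at most 400 bp, and 84 were longer still but at most 1000 bp. Another 218 were 1 to 5 kb, 202 were 5 to 20 kb and 115 were longer. Within runs, the wider of 2 neighbours had the higher score in 137 of 174 couples (78.7%), and the wider was typically 1.55 times the width of the other (median). Both members reached 100 in 15 couples, 1 did in 37 and neither did in 122.

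**Figure D5:**
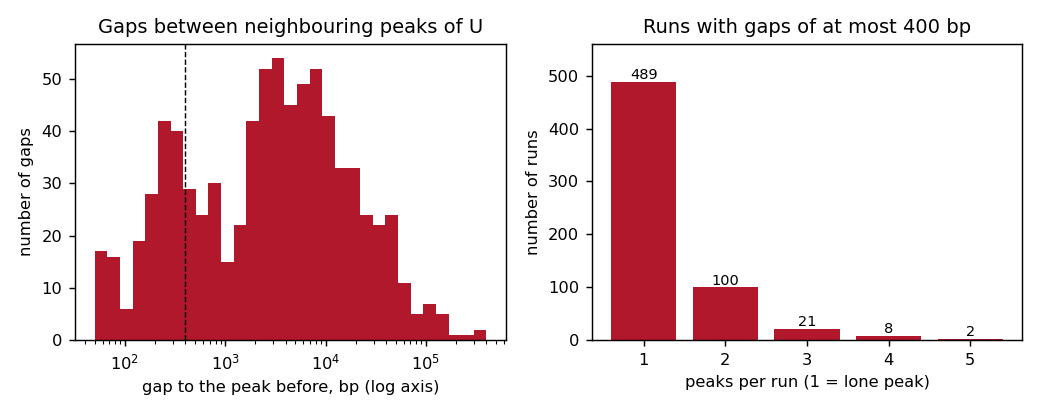
The left panel counts the gaps between neighbouring peaks of U on a logarithmic x axis in bp, with a dashed line at 400 bp, and the right panel counts runs by their number of peaks. Gaps gather on both sides of 1 kb, and 489 of the 620 units on the right are lone peaks.

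The 3 longest runs differed in kind. One from 5290048 to 5294750 held 5 peaks of 335 to 1466 bp with scores of 15.8 to 49.1, of which only the first was on the ladder. Another from 2075136 to 2078213 held 5 peaks of 363 to 546 bp, all weak, with scores of 8.72 to 18.5. The third, from 7874866 to 7881202, was the longest of the 8 with 4 peaks, with a strong one at each end (1994 bp with 135 and 2038 bp with 173) and weak ones of 339 and 1345 bp between them (14.4 and 28.6). By length the longest run was another, of 3 strong peaks from 8160809 to 8170044, which spanned 9236 bp with scores of 126 to 144.

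A regular spacing was seen at a few places, which were picked out after the values had been seen. At 5 places on U, 3 peaks in a row had widths and gaps equal within 100 bp, or 6.30 per 1000 peaks. The rate was 12.1 per 1000 on Uextra (126 places), 0 on the Het scaffolds and 4.04 per 1000 on the arms (8 places). Apart from the places described next, those on U held weak peaks of 213 to 456 bp, where 100 bp is a loose limit for widths. The longest of the 5 places started at 7616330, with widths of 2324, 2262 and 2305 bp and starts 12093 and 11951 bp apart. Further on, from 7654801, widths of 2213, 2243 and 2202 bp came with starts 4713 and 4741 bp apart and gaps of 2500 and 2498 bp. Between them lay peaks of 2161 bp and 4643 bp, with gaps of 2537 and 2538 bp on their outer sides. From 8203094 to 8223768, 5 peaks of 1720 to 5441 bp were separated by gaps of 2018, 273, 2014 and 2016 bp, so the second gap breaks the spacing. The median width of all peaks also fell along this end of U. It was 1744.5 bp from 7 to 8 Mb, 1385 bp from 8 to 9 Mb and 809 bp from 9 to 10 Mb. Near-equal widths of neighbours cannot be told apart from this change with position. Whether these places hold tandem copies was not tested, as it needs the sequence.

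Equal scores were frequent on U, and nearly all were rungs of the ladder. A score that another U peak also had was held by 587 peaks (73.9%, 70.8 to 76.9%), over 166 shared values. Of the 587, 585 lay on the ladder, and 730 of the 794 scores were also found outside U. The largest groups were 12 peaks at 15.26, 11 at 12.82, 10 each at 17.57 and 10.56, and 9 at 19.41, the highest of 5 values with 9 peaks each, matching counts of 174 to 206 reads. The first of these values was held by 59 peaks elsewhere as well, 44 of them on Uextra. Peaks of equal score were not of equal size, since those at 15.26 were 203 to 1240 bp wide and no 2 had the same width. In 163 of the 166 groups all widths differed. Among strong peaks, 8 shared a score of 132 with widths of 423 to 4831 bp, all past 7 Mb.

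Equal widths were rarer once narrow peaks were set aside. A shared width was held by 316 peaks (39.8%, 36.5 to 43.2%), but by only 28 of the 292 peaks of at least 1 kb (9.59%, 6.72 to 13.5%), over 13 widths. The most frequent of these were 1182 bp and 1117 bp, with 3 peaks each. The peaks of 1182 bp scored 156, 142 and 168, at 2184419, 9153242 and 9178935. Those of 1117 bp scored 11.9, 113 and 40.3, at 978873, 9013319 and 9064845. The widest 3 of the 11 widths with 2 peaks each were 2174 bp, 2161 bp and 2038 bp. Of these, 2174 bp had scores of 111 and 117, 2161 bp had 87.5 and 140, and 2038 bp had 173 and 109.

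Peaks that share both width and score with another of the list, candidates for repeat copies, numbered 47 (5.92%, 4.48 to 7.78%). This count rests on exact equality, since 386 peaks (48.6%) had a match with both values within 1%. With exact equality the share was 6.80% in the whole list, so that of U was not above it. It was 7.43% on Uextra, 7.22% on the Het scaffolds and 3.79% for the arms. Of the 47, 45 scored under 40, their median width was 275 bp and 7 were at the smallest width of the list, where equal values are most crowded. A partner was on Uextra for 35 of them, on the heterochromatin scaffolds for 9, on the arms for 7 and on U for 6. No neighbour on either side was repeated as well, at a matching gap and width, in any of the 47. An upper limit of 6.38%, taken as 3 of 47 and not as a Wilson limit, would hold only for independent draws. Peaks of 1 list are not such draws.

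The strong members of this group were 2. The peak at 8545647 to 8547037 and one on Uextra at 25316841 to 25318231 were both 1391 bp wide with a score of 120.78, or 417 reads, and 5 peaks of the list came within 1% of both values. This was 1 of 203 peaks of U that scored at least 100 over at least 1 kb. The peak at 8416596 to 8417316 and one on Uextra at 11983740 to 11984460 were both 721 bp wide with a score of 102.82, where 10 peaks came within 1%. With its neighbour 57 bp on, of 702 bp and a score of 93.64, it also formed the only couple with a strong member that had a like couple elsewhere. On Uextra, from 18188836 to 18190339, peaks of 722 and 714 bp with scores of 102.82 and 105.15 stood 68 bp apart.

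The other 8 of the 10 highest pairs were weak. The peak at 6916136 (358 bp, 35.79) had its partner on Uextra, and that at 7735868 (331 bp, 31.52) on 3R. Those at 9274424 (456 bp, 22.63), 1101321 (330 bp, 20.36) and 9566813 (319 bp, 19.73) had theirs on Uextra, and that at 6618537 (240 bp, 19.73) on 3LHet. The peak at 4797494 (257 bp, 19.41) had its partner on Uextra and that at 2029672 (380 bp, 18.18), the widest of several with this score, on 3LHet. Among 174 couples of adjacent peaks on U, 33 had a like couple somewhere in the list. Both widths and the gap then matched within 30 bp and both scores within 25%. Widths and gap alone matched for 110 of the 174. No such share is given for couples of other sequences, so the 33 cannot be told apart from what these limits admit anyway.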

How the data were processed

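ChIP-seq peaks of 3 anti-tango ChIP and 3 input DNA libraries were read from 1 list that the authors deposited. Per the file headers, coordinates are those of FlyBase release 5 and MACS made the calls. BDGP5, MACS2, BWA and CASAVA (1.7.0.3 as well as 1.7.0.2) are named, per the submitters' processing notes, without roles. How replicates were combined, how reads with several matching places were treated and which threshold was set is not given in the sources used here. Scores were used as the authors deposited them, to 2 decimals. Read depth is unknown.

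Widths, gaps, runs, equal values and the ladder of scores were computed with Python 3.11.15, numpy 2.4.6, pandas 2.3.3, scipy 1.17.1 and statsmodels 0.14.6, and tested on simulated data. The Poisson mean was the grid value whose rounded −log10 tail equalled most scores under 150. Het stands for 6 scaffolds and the arms for 6 sequences. The mitochondrial peaks count only in the whole list. Intervals are 95% Wilson intervals. Named peaks are the 10 highest scores, the 5 widest, the 3 longest runs by number of peaks, the 5 largest groups of equal score (ties to the higher score), the 5 most frequent widths of at least 1 kb (ties to the wider) and the 10 highest pairs of equal width and score. Other places named were chosen after their values were seen. The members, lists and rules were chosen with earlier results of these data known. No reference sequence was used here.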

Additional observations from a re-analysis of the deposited data

How the results depend on the processing

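Of 32 alternatives over 11 results, 9 stayed within the 95% interval of the value reported and 23 moved outside it. Of the 32, 12 were added after seeing the data. In 0 did the direction change, but only the rank correlation could change it, as the other results are shares and medians. No paired analysis was possible because values per library are lacking, so leaving out replicates could not be run either. U held 4.95% of the peaks that scored no less than the median and 6.25% of the top 25%. The median score on U was 19.7 for peaks of at most 1 kb and 53.0 with runs merged. The share in runs was 8.56% with gaps of at most 100 bp, 52.3% with at most 1000 bp and 21.1% for peaks at or above the median of the list. The share with an equal score was 92.2% with partners anywhere and 78.7% to 1 decimal. The share with an equal width was 9.59% for peaks of at least 1 kb and 81.5% with partners anywhere. Pairs of equal width and score made up 0.756% with the partner on U, 0.816% at scores of at least 100, and 48.6% with both values within 1%. The rank correlation was 0.28 at or above the median of the list and 0.64 for peaks of at most 1 kb. The fullest 10% of bins held 29.0% at 50 kb. Added alternatives gave 79.0% of scores on the ladder to the last decimal and 92.7% at scores of at least 100, 60.6% of peaks past 7 Mb at a score of at least 80 and 55.4% at 100 with runs merged. The median width of strong peaks was 2837 bp before 7 Mb (15 peaks, most of them past 6 Mb) and 1229 bp at scores of 90 to 110. Wider limits and partners admit more peaks by construction. Otherwise the cause was not tested. Without depth or values per library, no peak can be given an error.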
